A study of Mus musculus with 26 samples.

Results

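The genes described here are the metallothioneins Mt1 and Mt2, the metal-sensing transcription factor gene Mtf1 and the zinc exporter gene Slc30a1, in NIH3T3 cells, an established line of mouse fibroblasts. They were taken by symbol from the deposited tables and not by their values: 4 genes of 20430 in the RNA tables and of 19941 in the ribosome footprint tables. All 4 passed the filter on low counts in each fit. In RNA, all 4 were higher after 44 °C for 2 h and after H2O2 for 2 h, where 35.4% and 27.3% of all genes tested were called higher. Under KCl, the RNA of Mt1, Mt2 and Slc30a1 fell at 2 h and lay lower again at 7 h, and their footprints were also lower than in the control at both times. The transcript of Mtf1 went the other way at 7 h of KCl. Of all genes tested, 27.0% were called lower in RNA at 2 h of KCl and 31.6% at 7 h, and 5.06% and 9.83% in footprints. Slc30a1 RNA rose under H2O2 while no rise of its footprints was called, and its footprints per RNA were lower at both times.

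As background, metallothioneins are small cysteine-rich proteins that bind zinc and copper, and cadmium when it is present, and they also react with oxidants. MTF1 is a zinc-finger transcription factor that senses free zinc in the cell. When zinc rises, or when zinc is released from proteins by oxidants, MTF1 binds short DNA sequences called metal response elements and activates the metallothionein genes and Slc30a1. The product of Slc30a1, ZnT1, carries zinc out of the cell across the plasma membrane. Together these genes store, sense and export zinc, and metallothioneins are among the classical stress-responsive transcripts of cultured fibroblasts.

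Polyadenylated RNA was sequenced in 16 libraries of 8 groups, and ribosome footprints, the mRNA fragments that ribosomes protect from nuclease, in 10 libraries of 5 groups. Each group had 2 replicates. One experiment compared NIH3T3 cells under heat, at 44 °C for 2 h or at 42 °C for 8 h, with a heat control. The other compared cells under oxidative stress (H2O2, 2 h or 7 h) and under osmotic stress (KCl, 2 h or 7 h) with a control that both agents shared. Only this experiment is covered by the footprint libraries used here. All groups are the same unmodified line, and the labels name no genetic alteration, no dose of H2O2 or KCl and no separate cultures behind the replicates. The p-values therefore measure the spread between 2 libraries per group, which may be technical. Levels and fold changes, of RNA and of footprints, are relative to the other genes of the same library. A change in the number of cells, or one shared by all transcripts of a cell, is therefore not seen in them.

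Library totals were 30452066 to 42698179 expected counts for RNA of the heat experiment, 24441877 to 45244430 for RNA of the H2O2/KCl experiment and 1460751 to 5168537 for footprints. The 2 replicates of footprints at 2 h of H2O2 hold the lowest and the highest total of their kind. All 9 fibroblast markers examined, among them Col1a1 and Vim, were above 1 TPM in every RNA library, with a summed level of 4179 TPM at its lowest, in H2O2 for 7 h, and 11310 TPM at its highest. Summed levels of 4 epithelial markers were 22.3 to 95.7 TPM, nearly all of it Krt19, those of 4 leukocyte markers 5.62 to 44.8 TPM and those of 3 endothelial markers 0.34 to 3.18 TPM. The leukocyte sum, most of it Cd68, which encodes a lysosomal protein, was 9.59 and 9.98 TPM in the H2O2/KCl control. It was higher at 2 h of H2O2 (31.5 and 32.3 TPM), at 7 h of H2O2 (43.3 and 44.8 TPM) and at 2 h of KCl (23.2 and 23.7 TPM), and lower at 7 h of KCl (5.62 and 5.98 TPM), so it lay on the same side of the control as Mt1 and Mt2 RNA in each of these groups except 2 h of KCl. Ptprc, the pan-leukocyte marker, was at 0.05 TPM or less in every RNA library and Cd3e at 0. The part of these differences in the results below was not tested. TPM is a level scaled for transcript length and library size, so levels of different genes can be compared in it. Fold changes below are from the fit of expected counts. A difference is called when its edgeR quasi-likelihood p-value, adjusted by the Benjamini-Hochberg method over all genes of the fit, is under 0.05.

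The sequences upstream of Mt1, Mt2 and Slc30a1 are shown because MTF1 is known to act on these genes through metal response elements. RefSeq places Mt2 and Mt1 on the plus strand of chromosome 8, with Mt2 first and 5.52 kb from its end to the start of Mt1. Slc30a1 lies on the plus strand of chromosome 1 and Mtf1 on the plus strand of chromosome 4. The build is GRCm38.p6, and the submitters' processing notes name mm10. Each sequence is the 250 bases before the start of the transcript in RefSeq, 5′ to 3′ on the plus strand, with matches to the core of the metal response element in capitals, on either strand. They are chr8:94178839-94179088 for Mt1, chr8:94172368-94172617 for Mt2 and chr1:191906531-191906780 for Slc30a1.
Mt1: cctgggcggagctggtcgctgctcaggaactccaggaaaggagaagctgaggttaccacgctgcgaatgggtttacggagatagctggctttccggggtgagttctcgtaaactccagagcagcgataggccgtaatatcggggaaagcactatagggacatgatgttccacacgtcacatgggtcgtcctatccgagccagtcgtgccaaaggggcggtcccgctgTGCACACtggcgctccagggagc
Mt2: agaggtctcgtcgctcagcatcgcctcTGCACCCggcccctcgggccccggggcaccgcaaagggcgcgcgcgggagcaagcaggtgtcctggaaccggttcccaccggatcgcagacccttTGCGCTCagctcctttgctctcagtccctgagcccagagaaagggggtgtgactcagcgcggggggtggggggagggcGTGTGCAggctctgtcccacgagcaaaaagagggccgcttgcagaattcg
Slc30a1: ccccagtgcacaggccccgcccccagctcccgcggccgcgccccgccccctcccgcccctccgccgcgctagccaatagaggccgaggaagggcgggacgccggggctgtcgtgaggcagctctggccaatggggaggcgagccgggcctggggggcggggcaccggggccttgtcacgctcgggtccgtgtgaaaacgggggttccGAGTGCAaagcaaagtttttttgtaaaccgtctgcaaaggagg

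The core was searched as TGCACNC or TGCGCNC on both strands in 300 bases, the 250 above and the first 50 of the transcript. Positions are counted from the first base of the transcript, which is 1. Mt2 held 4 matches, which began at -223, -128, -50 and 5. Mt1 held 3, at -23, 3 and 21, and Slc30a1 held 2, at -43 and 31. Mtf1 held 0 in its window, whose first 250 bases are chr4:124802299-124802548. Of 32534 RefSeq promoter windows of this length, 25.9% held at least 1 match, 7.17% at least 2, 1.99% at least 3 and 0.523% at least 4. The antioxidant response element, searched as TGACNNNGC or TGAGNNNGC, matched 2 times in Slc30a1 (from -138 and -82), 1 time in Mt2 (from -79), 1 time in Mtf1 (from -87) and 0 times in Mt1. At least 1 such match was in 27.9% of windows and at least 2 were in 4.72%. A pair of facing heat shock units, searched as GAANNTTC or TTCNNGAA, matched in 15.1% of windows and in none of these 4. No match of one motif overlapped another. Bases beyond the first 50 of each transcript were not searched, so each count, the 0 for Mt1 included, covers its window only and is not a total for the promoter. Other RefSeq transcripts of Mt1 and Slc30a1 start upstream of the starts used here. Which start these cells use was not tested, so positions and the division into upstream and transcribed bases hold for the RefSeq start only. A match describes the letters only.

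Mt1 and Mt2 were abundant transcripts in untreated cells, whereas Mtf1 and Slc30a1 were scarce. In the control of the H2O2/KCl experiment the RNA level of Mt1 was 695 and 716 TPM in the 2 replicates, and that of Mt2 was 382 and 421 TPM. Mtf1 stood at 7.61 and 8.07 TPM and Slc30a1 at 4.09 and 5.19 TPM. Levels in the heat control were near these, at 562 and 688 TPM for Mt1, 322 and 350 TPM for Mt2, 8.74 and 8.63 TPM for Mtf1, and 5.22 and 5.18 TPM for Slc30a1. The experiments were fitted separately, so these 2 controls were not tested against each other.

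**Figure D1:**
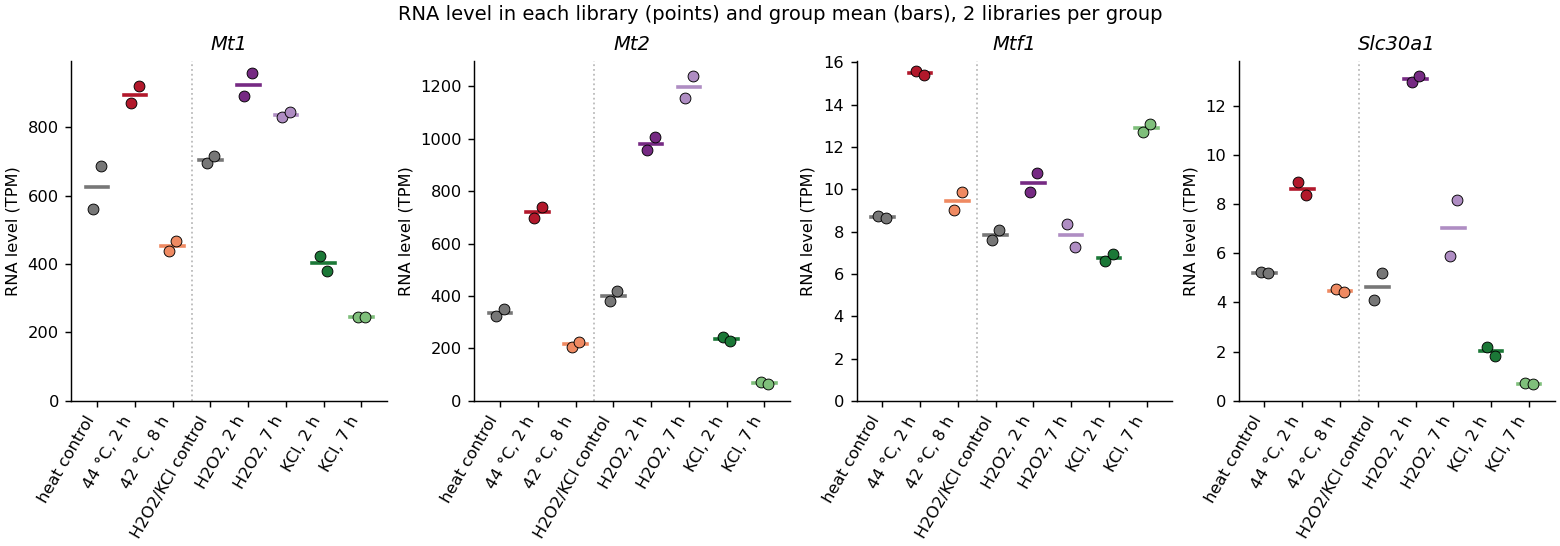
RNA level of each gene in TPM (linear axis from 0) in the 16 RNA libraries: points are libraries and bars are means of 2, with the heat experiment left of the dotted line. Mt1, Mt2 and Slc30a1 are highest under H2O2 and lowest at 7 h of KCl, while Mtf1 is highest at 44 °C and second highest at 7 h of KCl.

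Ordered by mean RNA level over the 8 groups, Mt2 ran from 1198 ± 57.6 TPM (SD, n = 2) at 7 h of H2O2 to 69.4 ± 5.25 TPM (SD, n = 2) at 7 h of KCl. No pair of neighbouring groups in that order overlapped for Mt2. Mt1 ran from 926 ± 46.5 TPM (SD, n = 2) at 2 h of H2O2 to 246 ± 0.361 TPM (SD, n = 2) at 7 h of KCl. Its only neighbours in order that overlapped were H2O2 for 2 h and 44 °C. For Slc30a1 the highest group was 2 h of H2O2, at 13.1 ± 0.163 TPM (SD, n = 2), and the lowest was 7 h of KCl, at 0.695 ± 0.0354 TPM (SD, n = 2). The heat control, the H2O2/KCl control and 42 °C overlapped in the middle of its order. Mtf1 spanned the narrowest range, from 15.5 ± 0.156 TPM (SD, n = 2) at 44 °C to 6.77 ± 0.233 TPM (SD, n = 2) at 2 h of KCl.

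Short, strong heat raised all 4 transcripts, whereas Mtf1 alone was called higher after longer, milder heat. After 44 °C for 2 h the level of Mt2 was 698 and 741 TPM, 2.05 times that of the heat control, a log2 fold change of 1.03 ± 0.06 (SE; edgeR adjusted p = 1.09e-09). Mt1 reached 871 and 920 TPM, a log2 fold change of 0.46 ± 0.07 (SE; edgeR adjusted p = 5.45e-05). Both metallothioneins lay above their controls in each library. Mtf1 stood at 15.6 and 15.4 TPM, a log2 fold change of 0.77 ± 0.06 (SE; edgeR adjusted p = 2.02e-08), and Slc30a1 at 8.89 and 8.36 TPM, a log2 fold change of 0.60 ± 0.07 (SE; edgeR adjusted p = 2.94e-06). In this comparison 35.4% of 12747 genes were called higher and 35.7% lower, so the share of genes called is high for any list.

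After 42 °C for 8 h the metallothioneins were below the heat control. Mt2 stood at 206 and 226 TPM and fell by 0.45 ± 0.06 on the log2 scale (SE; edgeR adjusted p = 1.48e-05). Mt1 stood at 437 and 469 TPM and fell by 0.27 ± 0.07 (SE; edgeR adjusted p = 0.00608), a call that was lost with DESeq2 (adjusted p = 0.0783) and without 1 of 2 libraries. Without replicate 2 of the heat control, which had the higher Mt1 level, its log2 fold change was -0.12 (edgeR adjusted p = 0.134), and without replicate 1 of 42 °C it was -0.23 (edgeR adjusted p = 0.0804). Without replicate 1 of the heat control it was -0.40, and the call was kept. Mtf1 was called higher, at 9.01 and 9.85 TPM and a log2 fold change of 0.30 ± 0.06 (SE; edgeR adjusted p = 3.58e-04). On log2(TPM + 1), which carries no correction for library composition, the Mtf1 value was 0.11 (limma adjusted p = 0.222), while the median of all genes moved from -0.01 to -0.17. Slc30a1, at 4.53 and 4.43 TPM, had a log2 fold change of -0.03 (95% interval -0.17 to 0.12; edgeR adjusted p = 0.782). Here 31.7% of all genes were called higher and 31.9% lower. Compared directly, all 4 transcripts were lower at 42 °C for 8 h than at 44 °C for 2 h, Mt2 by the most with a log2 difference of -1.48 ± 0.06 (SE; edgeR adjusted p = 3.02e-11). That contrast, in which temperature and duration both differ, called 75.1% of all genes in either direction.

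Under H2O2 the RNA of all 4 genes rose at 2 h, with larger log2 fold changes for Slc30a1 and Mt2 than for Mt1 and Mtf1. At 2 h the RNA level of Slc30a1 was 13.0 and 13.2 TPM, 3.18 times the control, with a log2 fold change of 1.67 ± 0.12 (SE; edgeR adjusted p = 4.22e-08). Mt2 rose to 956 and 1006 TPM, a log2 fold change of 1.29 ± 0.07 (SE; edgeR adjusted p = 2.63e-09). Mt1 rose to 893 and 959 TPM, a log2 fold change of 0.43 ± 0.06 (SE; edgeR adjusted p = 4.09e-05). None of these libraries overlapped the control. Mtf1 rose to 9.85 and 10.8 TPM, a log2 fold change of 0.40 ± 0.08 (SE; edgeR adjusted p = 6.37e-04). Of 13256 genes tested, 27.3% were called higher and 26.5% lower at this time.

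By 7 h of H2O2 Mt2 had reached its highest level of the series while Slc30a1 was lower than at 2 h. Mt2 stood at 1157 and 1238 TPM, 3.16 times the control, a log2 fold change of 1.66 ± 0.07 (SE; edgeR adjusted p = 4.47e-11). Mt1, at 831 and 844 TPM, was 0.34 ± 0.06 above the control on the log2 scale (SE; edgeR adjusted p = 1.90e-04). Slc30a1 stood at 5.87 and 8.17 TPM, replicates that differed more than those of other groups, with a log2 fold change of 0.84 ± 0.12 (SE; edgeR adjusted p = 2.54e-05). Mtf1, at 8.36 and 7.28 TPM, overlapped the control, and its log2 fold change was 0.08 (95% interval -0.07 to 0.24; edgeR adjusted p = 0.369). At this time 39.4% of all genes were called higher and 31.1% lower, and their median log2 fold change was 0.08.

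The 2 times of H2O2 were also compared directly, a contrast that called 73.4% of all genes. Mt2 was higher at 7 h than at 2 h by a log2 difference of 0.37 ± 0.07 (SE; edgeR adjusted p = 2.05e-04). Slc30a1 fell by 0.83 ± 0.11 from 2 h to 7 h (SE; edgeR adjusted p = 1.48e-05) and Mtf1 fell by 0.32 ± 0.08 (SE; edgeR adjusted p = 0.00237). For Mt1 the log2 difference was -0.09 (95% interval -0.21 to 0.03; edgeR adjusted p = 0.178).

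KCl lowered Mt1, Mt2 and Slc30a1 at both times, with the largest log2 fold change for the exporter. At 2 h Slc30a1 stood at 2.20 and 1.81 TPM, a log2 fold change of -1.16 ± 0.15 (SE; edgeR adjusted p = 1.73e-05). Mt1 stood at 423 and 381 TPM and fell by 0.69 ± 0.06 (SE; edgeR adjusted p = 5.00e-07), and Mt2 at 244 and 228 TPM and fell by 0.64 ± 0.07 (SE; edgeR adjusted p = 4.18e-06). Mtf1 was at 6.60 and 6.93 TPM, below both control libraries, with a log2 fold change of -0.12 (95% interval -0.28 to 0.04; edgeR adjusted p = 0.220). In this comparison 27.2% of all genes were called higher and 27.0% lower.

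At 7 h of KCl these 3 transcripts were at their lowest in the series and Mtf1 was above its control. Slc30a1 was at 0.72 and 0.67 TPM, 0.164 times the control, with a log2 fold change of -2.61 ± 0.18 (SE; edgeR adjusted p = 2.15e-08). That level rests on 42 and 38 expected counts, against 439 and 393 in the control. Mt2 stood at 73.1 and 65.7 TPM, 0.186 times the control, a log2 fold change of -2.42 ± 0.08 (SE; edgeR adjusted p = 2.38e-11). Mt1, at 246 and 246 TPM, had a log2 fold change of -1.42 ± 0.06 (SE; edgeR adjusted p = 4.22e-10). Mtf1 rose to 12.7 and 13.1 TPM, a log2 fold change of 0.82 ± 0.08 (SE; edgeR adjusted p = 3.84e-07). Among all genes 37.2% were called higher and 31.6% lower.

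Between 2 h and 7 h of KCl each of the 4 transcripts differed, in a contrast that called 68.8% of all genes. The log2 difference was -1.78 ± 0.08 for Mt2, -1.45 ± 0.22 for Slc30a1 and -0.73 ± 0.07 for Mt1 (SE; edgeR adjusted p of 4.09e-10, 3.81e-05 and 2.28e-07). For Mtf1 it was 0.94 ± 0.08 (SE; edgeR adjusted p = 1.41e-07). The transcript of the activator rose over the interval in which those of the metallothioneins and the exporter fell. H2O2 and KCl were set against each other at equal times, at doses that the labels do not give. At 2 h all 4 transcripts were higher under H2O2, Slc30a1 by the most at 7.10 times (log2 difference 2.83 ± 0.14, SE; edgeR adjusted p = 1.58e-09), where 51.3% of all genes were called. At 7 h Mt2 was 16.9 times as high under H2O2 as under KCl and Slc30a1 10.9 times, while Mtf1 was 0.600 times as high (edgeR adjusted p of 3.25e-14, 2.38e-10 and 7.41e-07), where 78.4% of all genes were called.

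The ratio of Mt2 to Mt1 differed between the stresses. In RNA, Mt2 was the less abundant of the pair in both controls, with ratios of 0.574 and 0.509 in the heat control and 0.550 and 0.588 in the H2O2/KCl control. At 44 °C the ratio was 0.801 and 0.805, and at 42 °C it was 0.472 and 0.482. At 2 h of H2O2 it was 1.07 and 1.05 and at 7 h 1.39 and 1.47, the only groups in which Mt2 was the more abundant. At 2 h of KCl it was 0.578 and 0.599, which overlapped the control, and at 7 h it was 0.297 and 0.267. Of the 6 stress groups, all except 2 h of KCl had ratios apart from their control, but with 2 libraries against 2 an exact permutation test cannot go below p = 0.333. The coding sequences of Mt1 and Mt2 are closely related, so the division of shared reads between them by the authors' counting is uncertain. With the counts of both genes added before the fit, a setting chosen after seeing the data, the sum was 0.81 ± 0.06 higher at 2 h and 0.97 ± 0.06 higher at 7 h of H2O2 on the log2 scale (SE; edgeR adjusted p of 1.15e-07 and 4.88e-09). In the same setting it was 0.67 ± 0.06 lower at 2 h and 1.71 ± 0.07 lower at 7 h of KCl, as log2 differences of -0.67 and -1.71 (SE; edgeR adjusted p of 7.96e-07 and 9.68e-11).

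**Figure D2:**
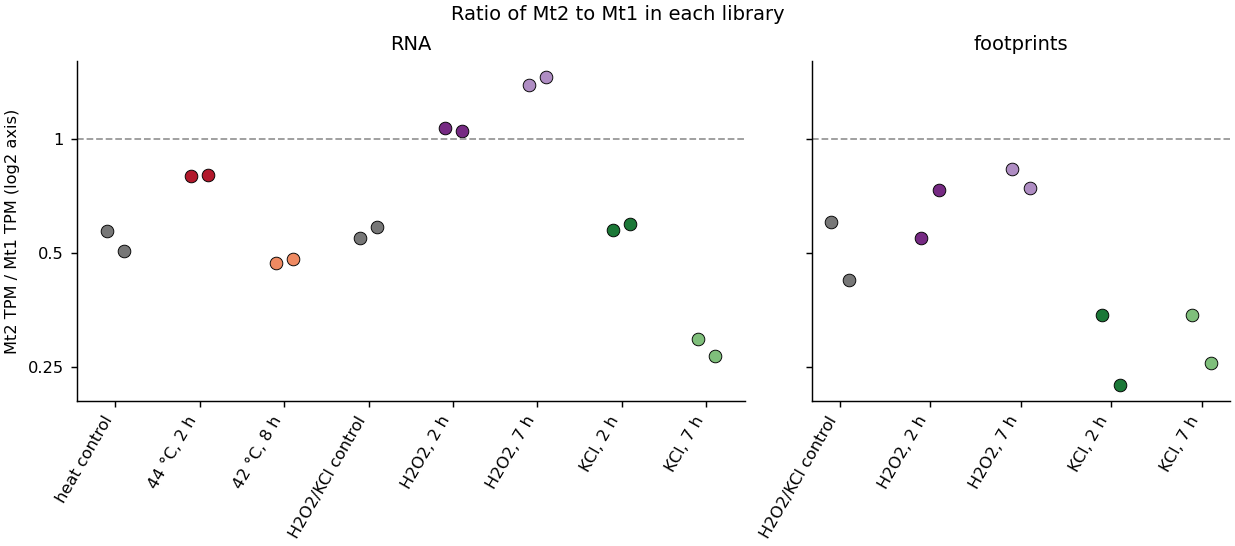
Ratio of the Mt2 level to the Mt1 level in TPM (log2 axis) in each of 16 RNA and 10 footprint libraries, with a dashed line at equal levels. In RNA the 4 H2O2 libraries lie above the line, from 1.05 to 1.47, and all other libraries lie below it, while in footprints every library lies below it.

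Ribosome footprints measured the ribosomes on all transcripts of a gene together, which depends on the amount of RNA and on the ribosomes per transcript, and they were counted in far fewer reads. In control cells the footprint level of Mt1 was 1785 and 1817 TPM and that of Mt2 1082 and 771 TPM. Slc30a1 stood at 32.6 and 36.3 TPM and Mtf1 at 5.19 and 4.26 TPM. In the fit of the 10 footprint libraries 10545 genes were tested, and Mtf1 had only 15 to 73 counts per library.

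**Figure D3:**
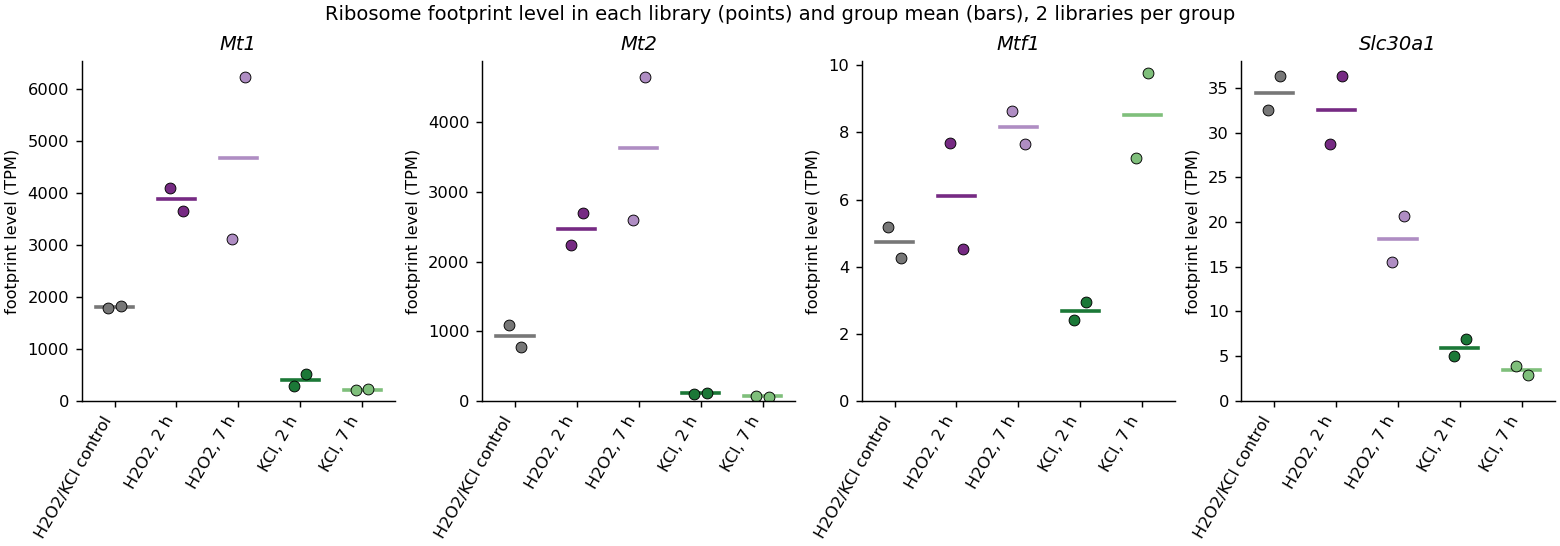
Footprint level of each gene in TPM (linear axis from 0) in the 10 footprint libraries: points are libraries and bars are means of 2. Mt1 and Mt2 are above the control in all 4 H2O2 libraries and far below it in all 4 KCl libraries, and Slc30a1 at 2 h of H2O2 overlaps the control.

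In H2O2 the footprints of the metallothioneins were higher in every library than in either control library. At 2 h Mt2 stood at 2241 and 2693 TPM, a log2 fold change of 1.49 ± 0.28 (SE; edgeR adjusted p = 0.0185). This call was lost without either control library (edgeR adjusted p of 0.0517 and 0.128) or without replicate 2 of H2O2 (edgeR adjusted p = 0.0701). Mt1 stood at 4091 and 3662 TPM, with a log2 fold change of 1.18 ± 0.32 (SE; edgeR adjusted p = 0.0796), and was called with DESeq2 (adjusted p = 0.00867). For Slc30a1, at 28.7 and 36.3 TPM, the log2 fold change was 0.05 (95% interval -0.49 to 0.60; edgeR adjusted p = 0.953), and for Mtf1, at 7.68 and 4.54 TPM, it was 0.34 (95% interval -0.31 to 0.99; edgeR adjusted p = 0.649). The Mtf1 value was 0.01 without replicate 1 of H2O2 and 0.755 without replicate 2. Only 1.14% of all genes were called higher and 0.768% lower at this time.

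At 7 h of H2O2 the footprints of Mt2 were at 2604 and 4650 TPM and those of Mt1 at 3112 and 6239 TPM, so the replicates differed widely. Mt2 rose by a log2 fold change of 1.87 ± 0.28 (SE; edgeR adjusted p = 3.03e-04). Mt1 rose by 1.27 ± 0.32 (SE; edgeR adjusted p = 0.00924), a call that rested on replicate 2 of H2O2. Without that library the Mt1 value was 0.58 (edgeR adjusted p = 0.211), and without replicate 1 of the control it was 1.19 (edgeR adjusted p = 0.0541). Slc30a1 footprints, at 15.6 and 20.7 TPM, lay below both control libraries, with a log2 fold change of -0.80 ± 0.29 (SE; edgeR adjusted p = 0.0545). With only the 2 groups in the fit the same value was -0.80 (edgeR adjusted p = 0.0232). Mtf1 stood at 8.65 and 7.65 TPM, with a log2 fold change of 0.67 ± 0.32 (SE; edgeR adjusted p = 0.135). In this comparison 17.2% of all genes were called higher and 10.6% lower.

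KCl lowered the footprints of Mt1, Mt2 and Slc30a1 at both times. At 2 h Mt2 stood at 96.6 and 115 TPM, 0.119 times the control, a log2 fold change of -3.07 ± 0.33 (SE; edgeR adjusted p = 2.25e-04). Slc30a1 stood at 5.06 and 6.86 TPM, a log2 fold change of -2.67 ± 0.34 (SE; edgeR adjusted p = 7.31e-04), and Mt1 at 282 and 515 TPM, a log2 fold change of -2.10 ± 0.34 (SE; edgeR adjusted p = 0.00350). All 3 were well below the control in each library, and the counts behind Mt2 were 30 and 37 against 452 and 299. Mtf1, at 2.42 and 2.96 TPM, had a log2 fold change of -0.75 ± 0.36 (SE; edgeR adjusted p = 0.264). Footprints of 1.79% of all genes were called higher and of 5.06% lower.

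At 7 h of KCl the footprints of Mt2 were at 73.5 and 56.4 TPM, 0.0713 times the control, a log2 fold change of -3.81 ± 0.35 (SE; edgeR adjusted p = 2.79e-05). Slc30a1 was at 3.94 and 2.91 TPM, from 12 and 16 counts, a log2 fold change of -3.29 ± 0.36 (SE; edgeR adjusted p = 9.54e-05). Mt1 was at 213 and 220 TPM, a log2 fold change of -3.02 ± 0.36 (SE; edgeR adjusted p = 1.97e-04). Mtf1 lay above both controls, at 7.25 and 9.76 TPM, with a log2 fold change of 0.89 ± 0.31 (SE; edgeR adjusted p = 0.0626). Here 10.5% of all genes were called higher and 9.83% lower.

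Set against each other, the footprints of Mt2 were 23.5 times as high under H2O2 as under KCl at 2 h and 51.2 times at 7 h (edgeR adjusted p of 5.06e-05 and 3.35e-07). Those of Mt1 were 9.75 and 19.7 times as high and those of Slc30a1 6.59 and 5.63 times (edgeR adjusted p of 4.63e-04, 2.87e-06, 9.33e-04 and 1.67e-04). These contrasts called 5.12% of all genes at 2 h and 41.2% at 7 h. Mtf1 was not called in either, with log2 differences of 1.09 (95% interval 0.38 to 1.81) at 2 h and -0.22 (95% interval -0.82 to 0.38) at 7 h. Between 7 h and 2 h of H2O2, where 29.8% of all genes were called, Slc30a1 was the only one of the 4 that was, with a log2 difference of -0.85 ± 0.29 (SE; edgeR adjusted p = 0.0413). Without replicate 2 of 2 h of H2O2 it was -0.29 (edgeR adjusted p = 0.557), without replicate 1 of 7 h -0.65 (edgeR adjusted p = 0.244) and without replicate 2 of 7 h -1.17 (edgeR adjusted p = 0.0510). Between 7 h and 2 h of KCl, where 20.6% were called, Mtf1 was the only one, with a log2 difference of 1.64 ± 0.35 (SE; edgeR adjusted p = 0.00644). Without replicate 1 of 2 h of KCl, Mt1 was called in this contrast, with a log2 difference of -1.32 (edgeR adjusted p = 0.0402), against -0.92 with all libraries. The Mtf1 call was lost without that library (edgeR adjusted p = 0.0506) or without replicate 2 of 7 h (edgeR adjusted p = 0.0564).

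Translational efficiency, the footprints of a gene relative to its RNA, was tested as the interaction of library kind and stress over 20 libraries and 10480 genes. Normalization within each kind of library sets the typical gene near no change, with medians over all genes of -0.02 to 0.06 on the log2 scale. A change of translation shared by all genes is therefore not seen, and each efficiency is relative to the typical gene. Slc30a1 was the 1 gene of the 4 called under H2O2. At 2 h its efficiency was 0.338 times that of the control, a log2 difference of -1.57 ± 0.27 (SE; edgeR adjusted p = 0.00168), from log2 fold changes of 1.67 in RNA and 0.05 in footprints. At 7 h the log2 difference was -1.64 ± 0.29 (SE; edgeR adjusted p = 0.00210). Leaving out any 1 library kept both calls. At 2 h the efficiency of 3.98% of all genes was called higher and of 7.46% lower, and at 7 h of 4.69% higher and 4.57% lower. The metallothioneins were not called, with log2 differences at 2 h and 7 h of 0.71 and 0.94 for Mt1 (edgeR adjusted p of 0.190 and 0.0991) and of 0.16 and 0.21 for Mt2 (edgeR adjusted p of 0.772 and 0.723). The Mt1 value at 7 h turned on the footprint replicates of H2O2: without replicate 1 it was 1.37 and called (edgeR adjusted p = 0.00748), and without replicate 2 it was 0.286. At 2 h Mt1 was called with only the groups compared in the fit (0.71, edgeR adjusted p = 0.0418). For Mtf1 they were -0.18 and 0.59 (edgeR adjusted p of 0.707 and 0.166).

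**Figure D4:**
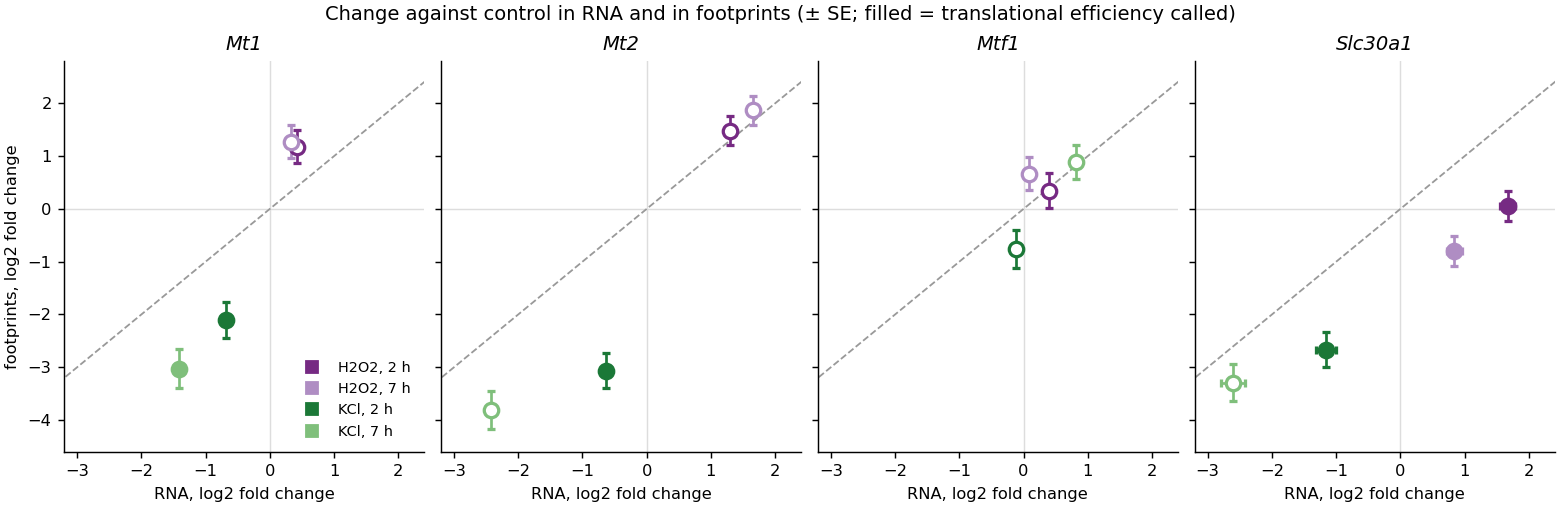
Log2 fold change against the control in RNA (horizontal) and in footprints (vertical), with SE of the fit, for each gene and each stress and time. The dashed line marks equal changes, and filled points are those whose translational efficiency was called: Slc30a1 lies below the line under each stress, and Mt1 and Mt2 lie below it under KCl.

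Under KCl the efficiency of Mt1, Mt2 and Slc30a1 was lower at 2 h. The log2 difference was -2.44 ± 0.36 for Mt2 (SE; edgeR adjusted p = 3.05e-04), which left its footprints per RNA at 0.184 times the control, relative to the typical gene. For Mt1 it was -1.43 ± 0.37 (SE; edgeR adjusted p = 0.0158), a call lost without replicate 1 of KCl footprints (-1.02, edgeR adjusted p = 0.0872) or without replicate 1 of control RNA (edgeR adjusted p = 0.0571). For Slc30a1 it was -1.52 ± 0.40 (SE; edgeR adjusted p = 0.0173), a call lost without replicate 1 of control footprints (edgeR adjusted p = 0.0552), without replicate 2 of KCl footprints (edgeR adjusted p = 0.103) and with limma voom (adjusted p = 0.0952). Mtf1 had -0.65 ± 0.32 (SE; edgeR adjusted p = 0.203). At this time 3.58% of all genes were called higher and 9.18% lower.

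At 7 h of KCl, where the RNA of Mt1, Mt2 and Slc30a1 was lower again than at 2 h, only the efficiency of Mt1 was called. Its log2 difference was -1.58 ± 0.39 (SE; edgeR adjusted p = 0.0237). The Mt1 value was -1.53 to -1.59 when each of 7 of the 8 libraries compared was left out in turn, with edgeR adjusted p of 0.0566 to 0.0971. Leaving out replicate 1 of control footprints was the exception and kept the call. Mt2 had -1.37 ± 0.40 (SE; edgeR adjusted p = 0.0582), and -1.56 without replicate 2 of control footprints (edgeR adjusted p = 0.0489). Slc30a1 had -0.66 ± 0.49 (SE; edgeR adjusted p = 0.482) and Mtf1 0.11 ± 0.25 (SE; edgeR adjusted p = 0.859). For Mt1 and Mt2 counted together the value was -1.50 ± 0.35 (SE; edgeR adjusted p = 0.0182). Of all genes 1.69% were called higher and 3.88% lower.

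The ratio of Mt2 to Mt1 was also taken in footprints. In the control it was 0.606 and 0.424. After H2O2 for 2 h the libraries had 0.548 and 0.736, and after 7 h they had 0.837 and 0.745. Under KCl it was 0.343 and 0.224 at 2 h and 0.345 and 0.256 at 7 h. As counted by the authors, Mt1 had the higher footprint level in all 10 libraries, also at 7 h of H2O2, where Mt2 had the higher RNA level. The division of shared reads between the genes is uncertain in footprints too, and its part in this difference was not tested. The ratios of 2 h of H2O2 overlapped those of the control, and the other 3 groups did not.

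Other zinc transporters were described from the whole families. For the counts in RNA of these and the lists that follow, the shares of all genes called higher and lower were 35.4% and 35.7% at 44 °C, 31.7% and 31.9% at 42 °C, 27.3% and 26.5% after H2O2 for 2 h, and 39.4% and 31.1% after H2O2 for 7 h. For KCl they were 27.2% and 27.0% after 2 h, and 37.2% and 31.6% after 7 h. ZnT proteins (SLC30) move zinc out of the cytosol, into vesicles, into the Golgi or out of the cell. Of 10 ZnT genes 7 were tested in RNA, and 4 were called higher and 0 lower at 2 h of H2O2, 2 and 2 at 7 h. The counts were 2 and 2 after KCl for 2 h, and 1 and 2 after KCl for 7 h. In the same order their median log2 fold changes were 0.21, -0.08, 0.06 and -0.06, against 0.00, 0.08, 0.00 and 0.04 over all genes, counts that include Slc30a1. The counts of 2 and 2 lie near or below the shares over all genes. Slc30a4, which loads zinc into vesicles, stood at 113 to 119 TPM in the control and in RNA went against Slc30a1 under KCl. Its RNA level was 189 to 237 TPM at 2 h of KCl and 213 to 230 TPM at 7 h, a log2 fold change of 1.04 ± 0.09 at 7 h (SE; edgeR adjusted p = 1.11e-07). No rise of its footprints was called: their log2 fold changes were -0.85 ± 0.27 at 2 h of KCl and 0.31 ± 0.26 at 7 h (SE; edgeR adjusted p of 0.0824 and 0.416). Its efficiency at 2 h of KCl was lower, as was that of Slc30a1, with a log2 difference of -1.83 ± 0.29 (SE; edgeR adjusted p = 5.49e-04). At 7 h of H2O2 Slc30a4 RNA was at 61.2 to 66.4 TPM and fell by 0.78 ± 0.09 (SE; edgeR adjusted p = 1.74e-06). Under heat 5 ZnT genes were called higher and 1 lower at 44 °C, and 2 higher and 1 lower at 42 °C.

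ZIP proteins (SLC39) move zinc into the cytosol, and 12 of their 14 genes were tested in RNA. At 44 °C 5 were called higher and 5 lower, and at 42 °C 3 higher and 5 lower. At 2 h of H2O2 5 were higher and 2 lower, and at 7 h 5 higher and 6 lower. At 2 h of KCl 5 were higher and 3 lower, and at 7 h 6 higher and 1 lower, where the median log2 fold change was 0.35 against 0.04 over all genes. Under heat the ZIP counts lie near the shares over all genes. Slc39a14, an importer of zinc and iron, had the largest rise of the family at 7 h of H2O2 among genes with a mean log2 CPM of at least 1, to 111 to 123 TPM from 32.7 to 34.2 TPM in the control (log2 fold change 1.88 ± 0.08, SE; edgeR adjusted p = 3.12e-11). Slc39a10, reported as repressed by MTF1, rose most at 7 h of KCl, to 38.2 to 39.5 TPM from 18.6 to 18.7 TPM (log2 fold change 1.15 ± 0.09, SE; edgeR adjusted p = 6.90e-08). Slc39a10 RNA was also called higher at 2 h of KCl (0.67 ± 0.09, SE) and at 2 h of H2O2 (0.40 ± 0.09, SE), where Mt1, Mt2 and Slc30a1 were higher too. It was called lower at 7 h of H2O2 (-0.56 ± 0.10, SE) and at 44 °C (-0.28 ± 0.06, SE). A role of MTF1 in these values was not tested. The footprints of Slc39a14 after H2O2 for 7 h and those of Slc39a10 after KCl for 7 h were also called higher, with log2 fold changes of 1.60 ± 0.27 and 1.21 ± 0.28 (SE; edgeR adjusted p of 7.05e-04 and 0.00912).

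**Figure D5:**
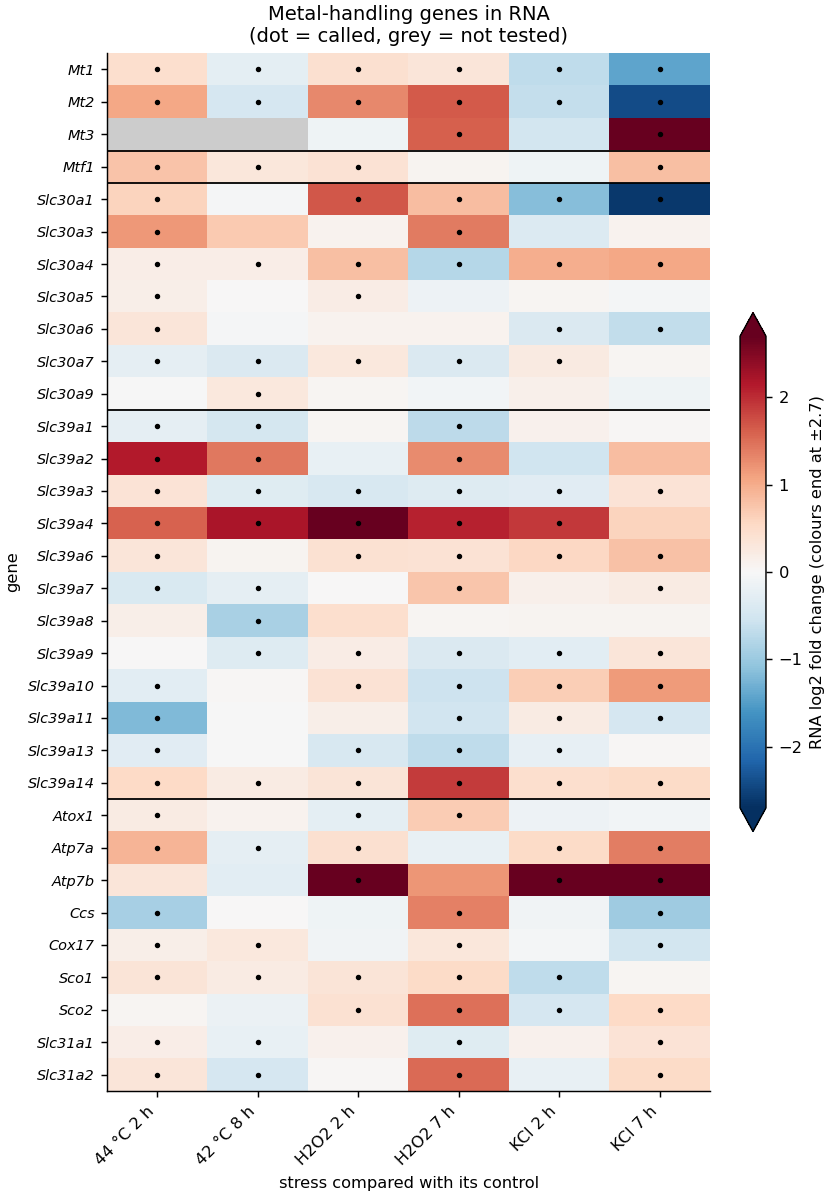
RNA log2 fold change (colour, ending at ±2.7) of metallothionein, Mtf1, ZnT, ZIP and copper genes in 6 comparisons of a stress with its control, where a dot marks a called difference and grey a gene that was not tested. Mt1, Mt2 and Slc30a1 are blue at both times of KCl, while Slc30a4, Slc39a10 and Atp7a are red there.

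The next list, of 5 other genes reported elsewhere as MTF1 targets, mixes directions, because it holds Slc39a10, reported as repressed. Its counts and medians are therefore no measure of activation by MTF1. After H2O2 for 2 h 4 were called higher and 0 lower, where 27.3% of all genes were higher and 26.5% lower. The median log2 fold change of the 5 was 1.17, against 0.00 over all genes. After H2O2 for 7 h 3 were higher and 1 lower. Slc39a10 was that 1, and was among those called higher after H2O2 for 2 h and at both times of KCl. KCl gave 3 higher and 0 lower after 2 h, with a median of 0.49, and 3 higher and 2 lower after 7 h, with a median of 1.00. Gclc, which makes the catalytic subunit of glutathione synthesis, stood at 25.4 to 25.8 TPM in the control and rose to 58.5 to 62.0 TPM at 7 h of KCl, a log2 fold change of 1.33 ± 0.06 (SE; edgeR adjusted p = 3.91e-10). Ndrg1, a gene also induced by hypoxia, rose from 97.4 to 102 TPM in the control to 375 to 376 TPM at 2 h of H2O2, a log2 fold change of 1.91 ± 0.07 (SE; edgeR adjusted p = 3.42e-11). Pgf, a growth factor of the VEGF family, rose from 1.23 to 1.27 TPM to 14.0 to 17.5 TPM at 7 h of H2O2, a log2 fold change of 3.52 ± 0.18 (SE; edgeR adjusted p = 2.95e-10). At 44 °C 2 of the list were called higher and 2 lower, and at 42 °C 2 higher and 1 lower, near the shares over all genes given above.

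Metallothioneins also bind copper, and 9 genes of copper handling were tested in RNA. Of these, 6 were called higher and 1 lower at 44 °C, 2 higher and 3 lower at 42 °C, 4 higher and 1 lower at 2 h of H2O2, and 6 higher and 1 lower at 7 h. Under KCl 2 were higher and 2 lower at 2 h, and 5 higher and 2 lower at 7 h. The counts at 42 °C and at 2 h of KCl lie near or below the shares over all genes. Atp7a, a copper-exporting pump, rose at 7 h of KCl to 17.3 to 19.9 TPM from 7.54 to 7.69 TPM, a log2 fold change of 1.39 ± 0.11 (SE; edgeR adjusted p = 7.63e-08). Ccs, the copper chaperone for superoxide dismutase, fell there by 0.96 ± 0.09 (SE; edgeR adjusted p = 2.81e-07). At 7 h of H2O2 the footprints of 5 of 8 copper genes tested were called higher and 0 lower. Over all genes 17.2% were called higher and 10.6% lower there. The median log2 fold change of the 8 was 1.06 against 0.01 over all genes. After KCl for 7 h the counts were 2 higher and 1 lower, against shares of 10.5% and 9.83%. After 2 h neither agent gave a called footprint change among these copper genes. The shares over all genes were then 1.14% higher and 0.768% lower for H2O2, and 1.79% and 5.06% for KCl. The remaining metallothioneins were scarce. Mt3, a form best known from the brain, rose from 0.40 to 0.78 TPM in the control to 3.27 to 4.21 TPM at 7 h of KCl, a log2 fold change of 2.79 ± 0.43 (SE; edgeR adjusted p = 4.30e-05). Mt4, known from squamous epithelium, stayed at 0.92 TPM or less in every RNA library.

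The pattern of each gene over the 6 RNA comparisons with a control was set against 10724 genes by the root mean square difference of their log2 fold changes. These comparisons share controls within an experiment, so likeness is a description. For Mt2 the nearest gene of all was Slc30a1 (0.50), then Kctd15 (0.52) and Rsad2 (0.57). Mt1 ranked 39 in nearness to Mt2, whereas Mt2 ranked 4424 and Slc30a1 3641 in nearness to Mt1. This measure depends on the size of the changes as well as on their direction. The Pearson correlation over the 6 comparisons was 0.974 for Mt1 with Mt2 and 0.970 for Mt1 with Slc30a1. For the 3 genes nearest to Mt1 it was 0.967 to 0.977. For Slc30a1 the nearest were Gramd2 (0.47), Mt2 (0.50) and Dus4l (0.62). For Mt1 they were Dennd4b (0.17), Dhx34 (0.21) and Slc37a4 (0.25), and for Mtf1 Dcaf10 (0.07), Ccdc71l (0.10) and Rnf44 (0.14). Dcaf10, the nearest to Mtf1, had log2 fold changes of 0.70 at 44 °C and 0.71 at 7 h of KCl.

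The study recorded transcription past gene ends, called DoG (downstream of gene) when it leaves the upstream gene and read-in when it enters the downstream one, for 6399 pairs of neighbours. Mt1, Mtf1 and Slc30a1 each belonged to 1 of these pairs, and the pair of Mt2 and Mt1 was not among them. In the authors' deposited table the DoG of Nek2, which lies before Slc30a1, was called in 6 of 16 RNA libraries: both at 42 °C, both at 2 h of H2O2, 1 H2O2/KCl control and 1 at 2 h of KCl. Its read-in estimate for Slc30a1 was 0 in every library. The formula of the estimate is not given, and a part of read-in in the level of Slc30a1 RNA was not tested. The DoG of Mtf1 toward Yrdc was called in 2 libraries and that of Mt1 toward Nup93 in 1, with estimates of at most 0.0139 and 8.46e-04. No read-in was called for any of the 3 pairs, where over all pairs and libraries 28.5% had a DoG call and 1.38% a read-in call. Nek2 RNA itself fell by 1.52 ± 0.07 on the log2 scale at 7 h of H2O2 (SE; edgeR adjusted p = 1.24e-10) and rose by 0.82 ± 0.06 at 7 h of KCl (SE; edgeR adjusted p = 6.15e-08), opposite in sign to Slc30a1 at both times.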

How the data were processed

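Libraries of NIH3T3 cells were grouped by the labels' stress and molecule types. The authors deposited expected counts per gene, whole numbers that the file names attribute to RSEM, and TPM values. STAR, RSEM, Bowtie and mm10 are named in the submitters' processing notes. Their roles and versions, the annotation and the selection of footprint lengths are not stated there. A read-in estimate, a ratio per pair of neighbouring genes, and true or false DoG and read-in calls were deposited by the authors without a formula. Per the labels' protocols a commercial kit was used for RNA, and footprints were prepared as in earlier work of the group. A further 12 columns of the footprint tables matched no label and were left out.

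Tests used edgeR 4.0.16 (R 4.3.3): TMM normalization, filterByExpr, quasi-likelihood F test and Benjamini-Hochberg adjustment over all genes of a fit. Heat RNA (12747 genes), H2O2/KCl RNA (13256 genes) and footprints (10545 genes) were fitted separately, with all groups of a fit sharing one estimate of spread. Translational efficiency was fitted with TMM within each kind of library. SE is the absolute log2 fold change divided by the square root of F. The code was tested on simulated data. Alternatives were RLE factors, DESeq2 1.42.0, limma 3.58.1 on log2(TPM + 1) and log2(TPM + 0.1) with TPM of at least 1 in 2 libraries, voom, no filter, only the groups compared, a replicate block and leaving out each library.

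The genes described and the gene lists were chosen with earlier results of these data known. From each list, called genes with the largest rise or fall in a stress against its control and a mean log2 CPM of at least 1 could be named, and a selection of them is printed. Mt3, Mt4 and the footprint values of listed genes were named after their values were seen. Promoter windows matched all 4 symbols.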

Additional observations from a re-analysis of the deposited data

Results flagged for a closer look

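Results were selected here because the difference between 2 h and 7 h of the same agent was itself called in the edgeR fit. These are log2 differences of 7 h minus 2 h with the SE of the fit. Under KCl the RNA of Mt2 (-1.78 ± 0.08), Slc30a1 (-1.45 ± 0.22) and Mt1 (-0.73 ± 0.07) was lower at 7 h, and that of Mtf1 (0.94 ± 0.08) was higher. Under H2O2 the RNA of Mt2 (0.37 ± 0.07) was higher at 7 h, and that of Slc30a1 (-0.83 ± 0.11) and Mtf1 (-0.32 ± 0.08) was lower. In footprints Slc30a1 was lower at 7 h of H2O2 (-0.85 ± 0.29), and Mtf1 was higher at 7 h of KCl (1.64 ± 0.35). Both footprint calls were lost on leaving out single libraries.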

How the results depend on the processing

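Of 92 values of the 4 genes, 63 were called, and 54 of these kept call and direction under each alternative run. In RNA 38 of 40 did, the exceptions being Mt1 and Mtf1 at 42 °C. No called value changed direction. Over 1106 recomputed values, 34 lost a call, 18 gained one and 18 changed direction. The number of the 4 genes called changed by over 1.5 times in footprints and efficiency, and the cause was not tested. In footprints at 2 h of H2O2, 1 gene was called, but 0 on either TPM scale or with only the groups compared, and 2 with DESeq2 or with no filter. Between 7 h and 2 h of H2O2 the number went from 1 to 0 with DESeq2, on log2(TPM + 0.1) and with only the groups compared. Between 7 h and 2 h of KCl it went from 1 to 2 with DESeq2, no filter or only the groups compared. In efficiency at 7 h of KCl it went from 1 to 0 with voom and to 2 with DESeq2 or only the groups compared, and at 2 h of H2O2 from 1 to 2 with only the groups compared.

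Leaving out each library in turn gave 0 to 1 genes for footprints at 2 h of H2O2, for both 7 h against 2 h contrasts of footprints and for efficiency at 7 h of KCl. It gave 1 to 2 for footprints and for efficiency at 7 h of H2O2. Values not called that changed sign had these ranges: Slc30a1 RNA at 42 °C -0.053 to 0.001, Mtf1 RNA at 7 h of H2O2 -0.106 to 0.173, Slc30a1 footprints at 2 h of H2O2 -0.516 to 0.378, and Mtf1 footprints of H2O2 against KCl at 7 h -0.417 to 0.013. Between 7 h and 2 h of H2O2, footprint ranges were -0.593 to 0.503 for Mt1, -0.193 to 0.738 for Mt2 and -0.093 to 0.652 for Mtf1. For efficiency they were -0.039 to 0.394 (Mt2) and -0.429 to 0.316 (Mtf1) at 2 h of H2O2, -0.332 to 0.584 (Mt2) at 7 h, and -0.140 to 0.292 (Mtf1) at 7 h of KCl. On log2(TPM + 1) and log2(TPM + 0.1), Mtf1 RNA at 7 h of H2O2 was -0.005 and -0.006, and Slc30a1 footprints at 2 h were -0.088 and -0.091. With Mt1 and Mt2 counted together, the RNA difference between 7 h and 2 h of H2O2 was 0.163, against -0.09 for Mt1. Across those TPM scales the median of all genes shifted by at most 0.23 in size, as -0.23 at 42 °C against 44 °C.

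Replicates share only a number. Their deviations correlated between groups at -0.16 to 0.28 (H2O2/KCl RNA), 0.05 to 0.10 (heat RNA) and -0.49 to 0.51 (footprints). With a replicate block Slc30a1 footprints at 7 h of H2O2 became called (-0.822, edgeR adjusted p = 0.0438), and no other call changed. The ratio of Mt2 to Mt1 from expected counts moved beyond the replicate SD in 6 of 26 libraries. Footprint depth limits Mtf1 and, under KCl, Slc30a1 and Mt2 most.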
